A study of Mus musculus with 4 samples.

Results

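Kinesins are motor proteins that use ATP to act on microtubules, and the gene family was followed here in testis RNA with and without PIWIL1. Members were taken by name from the RPKM table (reads scaled to the length of the gene and to the depth of the library): every gene symbol starting with Kif and a digit, with Kifc or with Kifap. The rule found 44 genes among the 22808 identifiers listed. One of them, Kif1bp, encodes a kinesin-binding protein and not a motor, and Kifap3 encodes the non-motor subunit of a kinesin. Of the 44, 32 reached 1 RPKM in at least 1 library and are called measured, and 12 stayed under that level in both.

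Most kinesins walk along microtubules with cargo such as vesicles, organelles, RNA granules and the building blocks of cilia. Others work in the spindle, where they slide microtubules apart, shorten their ends or close the division plane. In the testis, meiotic spermatocytes need the spindle motors, while spermatids use transport motors to build the flagellum and to shape the head along the manchette, a skirt of microtubules around the nucleus. KIF17 has a testis form, KIF17b, which is reported to carry ACT, the coactivator of the transcription factor CREM (ACT is encoded by Fhl5), out of the spermatid nucleus and to meet PIWIL1 (MIWI) in the chromatoid body, the RNA granule of round spermatids.

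Testes were from mice at postnatal day 23, either Piwil1+/- or Piwil1-/-, with 1 directional library from RNA depleted of ribosomal RNA for each genotype. Piwil1+/- animals carry 1 altered allele and served as the comparison; the labels give no wild-type RNA library, no strain for these animals and no number of animals per library. The totals behind the values, worked out from their steps, were 104014686 reads in Piwil1+/- and 100254357 in Piwil1-/-. Piwil1 was at 26.2 RPKM in Piwil1+/- and was listed at 0 in Piwil1-/-, as the labels have it. Without replicates no difference below has a test or a p-value, and intervals on a ratio are 95% exact (Clopper-Pearson) intervals that cover counting error only. Differences are given as log2 ratios, the change in log2 (RPKM + 1) from Piwil1+/- to Piwil1-/-, which understates the change of genes near 1 RPKM, or as plain ratios of RPKM.

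Markers of spermatids had the lowest median ratios among the cell type lists examined. All 7 measured elongating spermatid markers of 10 lay 2-fold or more below their Piwil1+/- level, against 1.96% of all measured genes. Of them, Prm2, Tnp2 and Fscn3 reached 1 RPKM in Piwil1+/- alone. Prm2 was at 0 in Piwil1-/-, so on the log2 (RPKM + 1) scale the level cut fixed its count as 2-fold lower. Akap4 (70.5 and 25.8 RPKM), Oaz3 (44.3 and 16.9), Cabs1 (27.0 and 4.05) and Odf1 (22.5 and 8.69) reached the cut in both libraries. The summed level of the list was 173 RPKM in Piwil1+/- and 56.2 in Piwil1-/-. Prm1, Prm2 and Tnp1, whose proteins take part in packing spermatid DNA, were listed at 0 in Piwil1-/- and were at 0.0616, 1.42 and 0.458 RPKM in Piwil1+/-. Prm1 and Tnp1 were thus not measured, and the intervals of their ratios (0 to 40.5 and 0 to 2.51) held 1. That of Prm2 ran from 0 to 0.608. For the 10 round spermatid markers the median log2 ratio was -0.53 (sums 399.6 and 328 RPKM). The medians were 0.12 over 10 meiotic prophase markers (849.7 and 925 RPKM), -0.02 over 7 markers of late pachytene and the meiotic divisions (1987 and 1821) and 0.01 over 4 spermatogonial markers (16.2 in both). They were 0.07 for 6 Sertoli cell genes (157 and 162), -0.16 for 5 Leydig cell genes (149 and 123), 0.03 for 4 peritubular genes (34.4 and 36.8) and -0.00 for 5 genes of multiciliated cells (458 and 489), several of which male germ cells express too. In bulk RNA, fewer cells of a type and less RNA per cell cannot be told apart.

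No measured kinesin differed by 2-fold between the genotypes. On the log2 (RPKM + 1) scale 0 of 32 lay 2-fold or more below the Piwil1+/- level and 0 lay 2-fold or more above it, against 1.96% and 0.231% of the 9951 measured genes of the table. At 1.5-fold, 1 kinesin was lower, Kif2b, and none was higher, against 5.21% and 1.42% of all measured genes. The family's median log2 ratio was -0.01, with 16 members below 0 and 16 above, and that of all measured genes was 0.01. Without Kif1bp, which is no motor, the family's median was 0.00, with 15 below 0 and 16 above. The median distance from 0 was 0.11 for the kinesins and 0.12 for all measured genes.

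**Figure D1:**
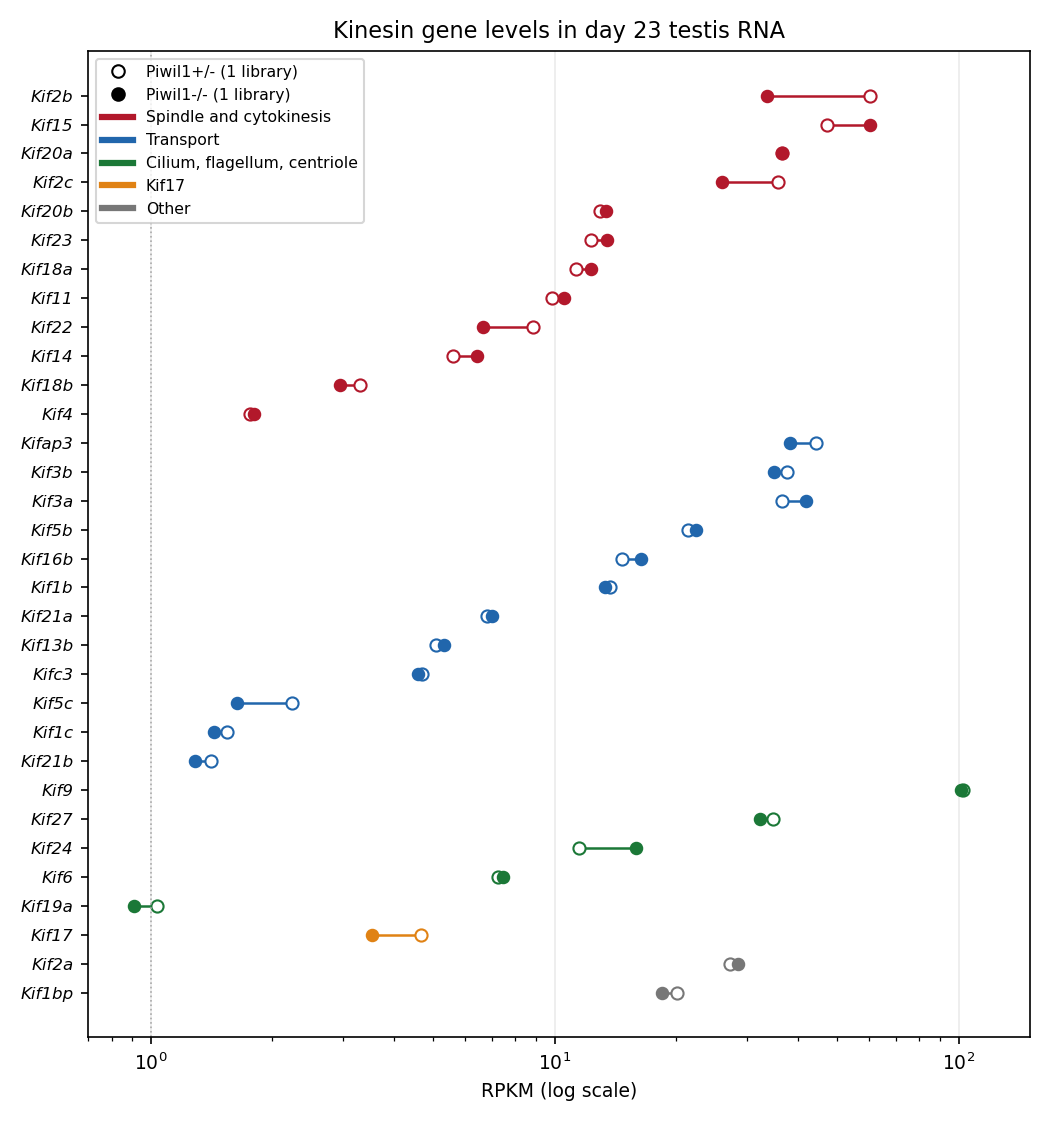
Level of each of the 32 measured kinesin genes (RPKM, log axis) in Piwil1+/- (open circles) and Piwil1-/- (filled circles) testis, 1 library each, coloured by group, with a dotted line at 1 RPKM. Levels run from about 1 RPKM (Kif19a) to 103 RPKM (Kif9), and Kif2b shows the widest gap, from 60.4 to 33.6.

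In level, the family was led by a flagellar motor and not by the classical cargo motors. Kif9, a motor of the sperm flagellum's central apparatus, was highest in both libraries, at 103 RPKM in Piwil1+/- and 101 in Piwil1-/-. Its level lay above 97.8% of the measured genes of Piwil1+/- testis or equal to them. Kif2b was second in Piwil1+/- at 60.4 RPKM and Kif15 followed at 47.2. In Piwil1-/- Kif15 was second and Kif2b seventh. The 9 highest genes of Piwil1+/- held 67.1% of the summed RPKM of all members there, and the same 9 held 64.9% in Piwil1-/-. The summed level was 649 RPKM in Piwil1+/- and 625 in Piwil1-/-.

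Spindle and cytokinesis kinesins made up the largest share of that sum among the groups, 38.1% in Piwil1+/- and 36.1% in Piwil1-/-. Transport kinesins held 29.7% and 30.5%, and those of cilia, flagella and centrioles 24.3% and 25.3%. Kif17 held 0.719% and 0.567%. Kif2a and Kif1bp (20.1 and 18.4 RPKM) made up nearly all of the rest. Kif2a, which works in spindles too, was not listed with the spindle group. It held 4.19% in Piwil1+/- and 4.55% in Piwil1-/-, so the spindle share and the spindle median depend on this placement.

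**Figure D2:**
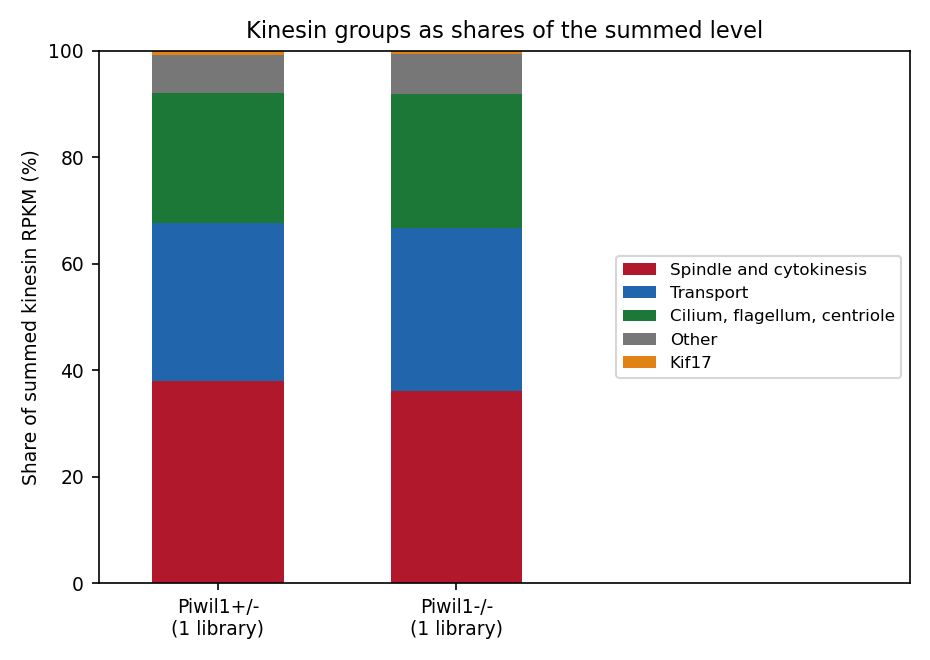
Share of the summed RPKM of all 44 kinesin genes held by each group in the 2 libraries (stacked bars, percent). The spindle share is 38.1% in Piwil1+/- and 36.1% in Piwil1-/-, and the order of the groups is the same in both.

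The spindle kinesins, 12 of 14 measured, had a median log2 ratio of 0.03, with 8 above 0 and 4 below. Their spread was wide for the family, from -0.83 for Kif2b to 0.35 for Kif15, and their mean of -0.07 has the opposite sign to the median. Kif2b encodes a kinesin-13, a motor that does not walk but takes microtubules apart at their ends. Its level of 60.4 RPKM in Piwil1+/- stood against 33.6 RPKM in Piwil1-/-. The Piwil1-/- level was 0.556 of the other (0.539 to 0.572), counted on no fewer than 12618 and 6758 reads. Kif2b lies on chromosome 11, 91575286 to 91577555 (RefSeq, GRCm38.p6), a span of 2270 bp, and no other RefSeq gene overlaps it. It was the single measured kinesin past 1.5-fold.

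Kif2c (MCAK), the centromeric kinesin-13 that corrects faulty attachments of chromosomes, was at 35.7 and 26.03 RPKM in the 2 libraries (ratio 0.728, 0.698 to 0.759). Kif22 (Kid), which pushes chromosome arms away from the poles, was at 8.86 and 6.66 RPKM, a ratio of 0.752 (0.709 to 0.798). Kif18b, which shortens astral microtubules, was at 3.30 and 2.94 RPKM. These 3 and Kif2b are the 4 measured spindle kinesins with a log2 ratio below 0.

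On the higher side, Kif15, a mitotic motor that cross-links parallel spindle microtubules, had 47.2 RPKM in the Piwil1+/- library and 60.4 in the other. Its ratio of 1.28 (1.26 to 1.30) rests on at least 45832 and 56568 reads. Kif14, which acts in cytokinesis, was at 5.60 and 6.42 RPKM, a ratio of 1.15 (1.11 to 1.19). Kif11 (Eg5), the bipolar motor that separates the spindle poles, was at 9.84 and 10.6 RPKM and Kif18a, which damps the movements of chromosomes on the spindle, at 11.3 and 12.3. The midzone motor Kif23 (MKLP1) was at 12.3 and 13.4 RPKM. All 5 had intervals above 1, as did Kif20b (1.004 to 1.07). These are 6 of the 12 measured spindle kinesins, against 27.4% of the measured genes with read numbers. Kif15 had the highest ratio of the spindle group.

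Several spindle motors were at nearly the same level in both testes. Kif20a (MKLP2), needed for the last step of cell division, had 36.55 and 36.63 RPKM in the Piwil1+/- and Piwil1-/- libraries, with a ratio whose interval ran from 0.975 to 1.03. Its RefSeq span overlaps Brd8 and Cdc23, whose reads cannot be told apart from its own where the counting ignores strand. Kif20b was at 12.9 and 13.4 RPKM (ratio 1.04, 1.004 to 1.07), and Kif4, the chromokinesin that sets the length of the midzone, at 1.77 and 1.80. Kifc1 and Kifc5b, minus-end-directed motors with near-identical sequences, were under 1 RPKM (0.930 and 0.847 for Kifc1, 0.305 and 0.247 for Kifc5b). Reads that match both copies may have been split or dropped, so their values are uncertain. The same holds for Kif4 and Kif22, whose pseudogene copies were not analysed here.

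The kinesin-13 family as a whole, a grouping made after its values were seen, held the lowest and the highest ratio among the measured kinesins. Beside Kif2b and Kif2c it includes Kif2a, which works in spindles and in neurons, and Kif24, which acts at the mother centriole and restrains the growth of cilia. Kif2a stood at 27.2 and 28.4 RPKM, 4.67% higher (interval of the ratio 1.03 to 1.06). Kif24 was at 11.5 and 15.9 RPKM, a ratio of 1.38 (1.35 to 1.42). Per length, Kif2b RNA was 2.22 times as abundant as Kif2a RNA in Piwil1+/- testis and 1.18 times in Piwil1-/-.

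Transport kinesins spread less than the spindle kinesins, and none of those measured was past 1.5-fold. Of 17 genes 12 were measured; their median log2 ratio was -0.03, with 7 below 0 and 5 above, and they ran from -0.30 (Kif5c) to 0.19 (Kif3a). Heterotrimeric kinesin-2, the motor of intraflagellar transport, dominated. Its motor subunits Kif3a and Kif3b were at 36.5 and 37.6 RPKM in Piwil1+/-, and its adaptor Kifap3 at 44.4. Together the 3 subunits held 18.2% of the summed kinesin level there and 18.4% in Piwil1-/-.

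The subunits of that motor differed in direction between the genotypes. Kif3a was higher in Piwil1-/-, at 41.9 RPKM (ratio 1.15, 1.13 to 1.16). Kifap3 was lower, at 38.2 RPKM (ratio 0.862, 0.845 to 0.879), and so was Kif3b, at 34.9 (0.928, 0.888 to 0.969). The level of Kif3a over that of Kifap3 was 0.822 in Piwil1+/- and 1.09 in Piwil1-/-. Kif3c, the alternative partner of Kif3a known from neurons, was at 0.366 and 0.455 RPKM, from at least 91 and 109 reads.

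Of the conventional kinesin-1 heavy chains, the ubiquitous form Kif5b was at 21.4 and 22.4 RPKM, the form Kif5c at 2.24 and 1.63, and the neuronal form Kif5a at 0.667 and 0.634. Kif5c had the lowest ratio of the transport group among measured genes, 0.730 (0.627 to 0.850), from at least 419 and 295 reads. Kif16b, a motor of early endosomes, was at 14.6 and 16.3 RPKM (ratio 1.11, 1.07 to 1.16). The mitochondrial and vesicle motor Kif1b stood at 13.7 and 13.3 RPKM, Kif21a, which curbs microtubule growth, at 6.81 and 6.99, Kif13b at 5.09 and 5.34, and the minus-end-directed Kifc3 at 4.70 and 4.58. Kif1c was at 1.54 and 1.44 RPKM and Kif21b at 1.41 and 1.29. Kif1a, the synaptic vesicle motor, was under the level cut at 0.771 and 0.555 RPKM, with a ratio of 0.720 (0.674 to 0.770) from at least 2120 and 1472 reads.

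The kinesins of cilia, flagella and centrioles had a median log2 ratio of -0.02 over 5 of 6 genes in the table, with 3 below 0, and the sign of this median was not stable (-0.03 to 0.01 over other settings). Kif9 differed by 1.35% between the libraries, with a ratio of 0.987 (0.967 to 1.01). Kif27, related to the Hedgehog pathway kinesin Kif7 and known from motile cilia, was at 34.7 and 32.2 RPKM (ratio 0.927, 0.906 to 0.949). Kif6, a motor of ependymal cilia, was at 7.25 and 7.46 RPKM. Kif19a, which shortens motile cilia at their tips, was near the level cut at 1.04 and 0.908. Kif7 was at 0.128 and 0.210 RPKM (ratio 1.63, 1.28 to 2.10), from at least 108 and 170 reads. The ratios of Kif9 and Kif27 were thus 0.987 and 0.927, the second with an interval below 1. The elongating spermatid markers summed to 173 RPKM in Piwil1+/- and 56.2 in Piwil1-/-. How the levels of these 2 kinesins relate to the spermatid content of the testes was not tested.

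**Figure D3:**
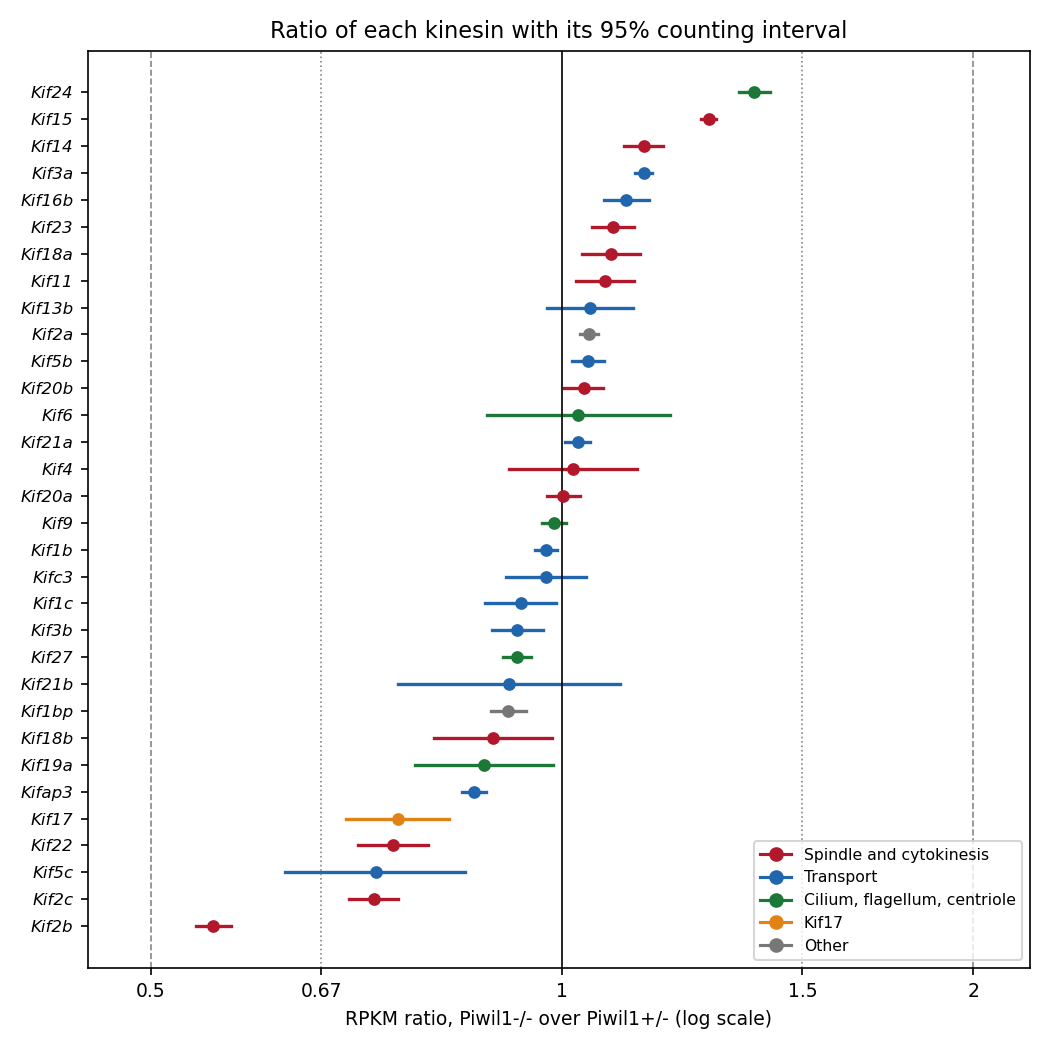
Ratio of RPKM, Piwil1-/- over Piwil1+/-, for each of the 32 measured kinesins (points, log axis) with its 95% counting interval (bars), which holds no difference between animals. Dotted lines mark 1.5-fold and dashed lines 2-fold; Kif2b at 0.556 lies beyond the lower dotted line, and Kif24 at 1.38 is the highest.

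Kif17 was a minor kinesin of the whole testis and was lower in Piwil1-/-. The Piwil1+/- library had 4.67 RPKM and the Piwil1-/- library 3.54, which placed it 26th of the 44 members in both libraries. The ratio was 0.758 (0.695 to 0.827) from at least 1218 and 890 reads, a log2 ratio of -0.32. Among measured kinesins, Kif2b, Kif2c, Kif5c and Kif22 had lower ratios of RPKM, the last 3 with intervals that overlap that of Kif17. Each gene has 1 value in the data, so the testis form KIF17b and the full-length form cannot be told apart. Kif17 lies on chromosome 4, 138262251 to 138301973 (GRCm38.p6).

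Set beside the other groups, the log2 ratio of Kif17 lay below those of the 12 transport kinesins measured, the lowest being Kif5c at -0.30. By the plain ratio of RPKM Kif5c was lower than Kif17 (0.730 and 0.758), and the 2 intervals overlap, so these genes are not ordered. Of the 12 spindle kinesins, Kif2b had an interval wholly below that of Kif17. Kif2c, at -0.44, and Kif22, at -0.36, had lower log2 ratios than Kif17 but intervals that overlap its own. The medians were 0.03 for the spindle group and -0.03 for the transport group, but single genes spread more than medians. Members ran from -0.83 to 0.35 in the spindle group, a range that holds Kif17, and from -0.30 to 0.19 in the transport group. Of the 10 markers of round spermatids, cells in which KIF17b is known, 8 had log2 ratios below 0 and 3 were at least 1.5-fold lower (median -0.53). Of all 9951 measured genes, 4859 were below 0 and 5.21% were at least 1.5-fold lower. All 7 measured markers of elongating spermatids were at least 2-fold lower (median -1.41), against 1.96% of all measured genes. For Prm2, at 0 in Piwil1-/-, the level cut fixed this. The part of both lists in the values of Kif17 and Kif2b was not tested.

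Genes reported to work with KIF17 in male germ cells differed among themselves. Piwil1 aside, the lowest was Fhl5, which encodes ACT, at 21.6 and 7.86 RPKM (log2 ratio -1.35). Tbata (SPATIAL), a spermatid protein reported to bind KIF17b, was at 9.68 and 4.92 RPKM (-0.85). Crem, which encodes the transcription factor that ACT assists, was at 89.0 and 72.98 RPKM (-0.28), close to the log2 ratio of Kif17. By the plain ratio of RPKM, Crem was at 0.820 (0.815 to 0.825) and Kif17 at 0.758 (0.695 to 0.827). Tsn (translin, the RNA-binding protein TB-RBP) was at 14.6 and 13.6 RPKM (-0.09), and its partner Tsnax at 16.7 and 19.1 (0.18). Of the 6 genes 2 were past 2-fold on the lower side, Fhl5 and Piwil1 itself, the gene altered in these animals. None was past 2-fold on the higher side. Over all measured genes the shares were 1.96% and 0.231%. Fhl5 and Crem are also among the round spermatid markers above.

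The promoters of Kif17 and of 3 other members are shown because CREM acts through the cAMP response element (CRE) and because Kif2b and Kif15 differed most among the spindle motors in each direction. Each sequence is the 250 bases before the RefSeq start (GRCm38.p6), written 5′ to 3′ on the gene's strand. Capitals mark the full CRE, TGACGTCA, the CCAAT box, CCAAT, and the cell cycle homology region, TTTGAA, each on either strand. They are Kif17 (chr4:138262001-138262250, plus strand), Kif5c (chr2:49619036-49619285, plus strand), Kif2b (chr11:91577556-91577805, minus strand) and Kif15 (chr9:122950831-122951080, plus strand).
Kif17: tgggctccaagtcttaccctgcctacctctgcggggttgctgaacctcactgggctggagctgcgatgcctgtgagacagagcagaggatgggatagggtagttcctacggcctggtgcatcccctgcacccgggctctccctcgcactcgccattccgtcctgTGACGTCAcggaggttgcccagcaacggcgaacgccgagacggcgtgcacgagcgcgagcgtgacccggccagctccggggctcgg
Kif5c: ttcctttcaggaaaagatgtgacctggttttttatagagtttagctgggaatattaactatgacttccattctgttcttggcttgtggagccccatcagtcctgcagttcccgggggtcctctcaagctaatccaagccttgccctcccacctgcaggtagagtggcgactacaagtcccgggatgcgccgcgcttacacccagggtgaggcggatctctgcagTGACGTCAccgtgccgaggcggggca
Kif2b: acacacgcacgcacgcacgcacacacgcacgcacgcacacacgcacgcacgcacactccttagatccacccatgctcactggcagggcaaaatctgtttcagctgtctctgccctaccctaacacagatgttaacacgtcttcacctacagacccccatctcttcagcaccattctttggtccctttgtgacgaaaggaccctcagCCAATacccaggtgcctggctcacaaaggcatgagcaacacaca
Kif15: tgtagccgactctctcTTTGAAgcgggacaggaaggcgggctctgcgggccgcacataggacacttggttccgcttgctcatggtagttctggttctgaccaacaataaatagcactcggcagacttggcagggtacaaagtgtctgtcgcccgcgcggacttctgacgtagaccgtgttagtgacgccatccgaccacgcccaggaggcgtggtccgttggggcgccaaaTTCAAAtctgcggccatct

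RefSeq windows were found for 35 of the 44 members, 39 windows in all. A full CRE was in the windows of 2 members, Kif17, where it begins 86 bases before the start, and Kif5c, where it begins 26 bases before. It was in 1.55% of all 32851 RefSeq windows. These 2 members had log2 ratios of -0.32 and -0.30. Among all 263 measured genes with a CRE in such a window, the median log2 ratio was -0.00 and 50.2% were below 0, against 0.01 and 48.5% for the 7832 measured genes with any window. The CCAAT box was in 48.7% of the member windows and 33.9% of all windows, and TTTGAA in 8 of the 39 member windows and 5252 of all. Some windows lie inside the RefSeq span of their gene and not before its outermost start. Among them are those with TTTGAA for Kif14, Kif27, Kif2c and Kif1a, and whether they are promoters was not tested. GTTGCC, part of the X-box of ciliary genes, was in 20.5% and 10.4% and is not in capitals above. The median share of G and C bases was 62.4% in the member windows and 52.4% in all windows. Its part in these motif shares was not tested. A match of letters does not show that a factor binds there.

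Partners of the spindle motors stayed near equal levels. All 15 genes of that list were measured, and their median log2 ratio was 0.04, with 10 above 0. None was past 1.5-fold, against 5.21% of all measured genes on the lower side and 1.42% on the higher. The highest were Birc5 (survivin, of the chromosomal passenger complex) at 0.30 and the checkpoint kinase Bub1 at 0.19. The lowest were Cdca8 (borealin) at -0.16 and Aurka (Aurora A) at -0.12. Added after their values were seen, Cenpe, the kinetochore kinesin whose symbol the name rule does not take, was at 26.3 and 29.1 RPKM (0.14). Prc1, the midzone cross-linker that recruits Kif4 to the midzone, was at 89.4 and 94.2 RPKM.

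Kinesin light chains and cargo adaptors had a median log2 ratio of 0.01 over 11 of 14 genes. On the lower side 1 was past 1.5-fold and on the higher side none, against 5.21% and 1.42% of all measured genes. That gene was Fez1, a kinesin-1 adaptor, at 2.28 and 1.09 RPKM (log2 ratio -0.65; ratio 0.476, 0.365 to 0.615). The next lowest was Fez2 at -0.12, and the highest were Trak2, a mitochondrial adaptor, at 0.18 and the light chain Klc1 at 0.13. Klc3, the light chain of spermatids, also added after its values were seen, was at 0.195 and 0.0785 RPKM, under the level cut.

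**Figure D4:**
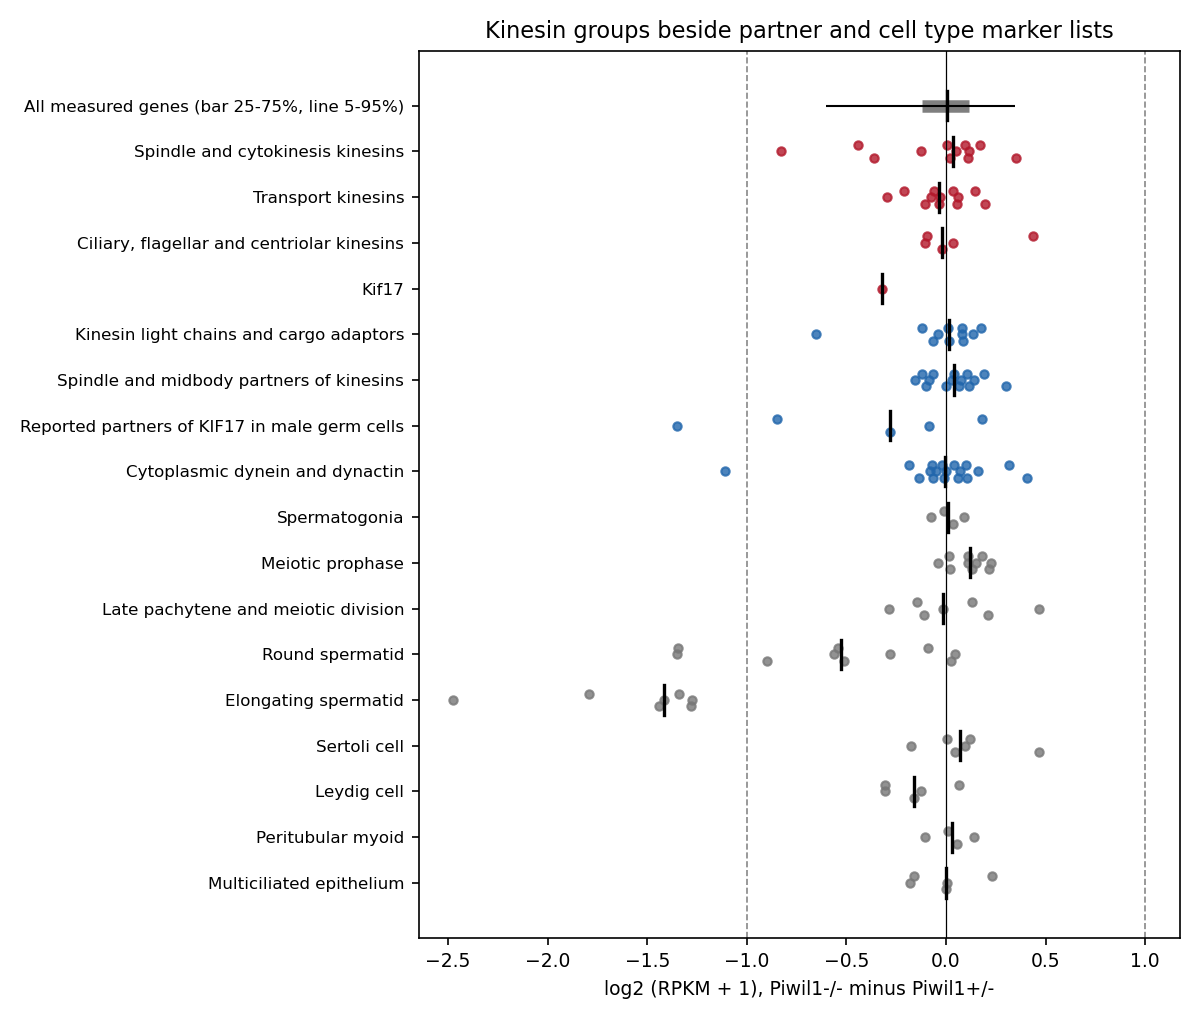
Log2 ratio of each measured gene (points) in the kinesin groups (red), the lists of kinesin partners and of dynein with dynactin (blue) and the cell type markers (grey), with the median of the points drawn (black tick), beside all measured genes. Kif2a and Kif1bp, which are outside the named groups, are not drawn. Piwil1 itself, at -4.77, is left out, so the tick of the KIF17 partners is at -0.28 while the median of all 6 is -0.57; the spindle, transport and ciliary kinesins centre near 0 and Kif17 lies at -0.32, the round and elongating spermatid markers at -0.53 and -1.41.

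Many ratios of the family left out 1 by counting error. The interval of the ratio lay below 1 for 13 of the 32 measured members and above 1 for 12, against 26.8% and 27.4% of the 9898 measured genes for which read numbers were found. The measured kinesins had a median of 5616.5 reads in Piwil1+/-, against 1064 for all measured genes, and more reads give narrower intervals. At the minimum read numbers found, the 7 whose interval held 1 were Kif9, Kif20a, Kif6, Kif13b, Kifc3, Kif4 and Kif21b. How much 2 testes of 1 genotype differ was not measured, so an interval that leaves out 1 does not show an effect of the genotype.

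The 12 members under 1 RPKM in both libraries were 5 transport kinesins (Kif1a, Kif13a, Kif5a, Kif3c and Kifc2), 2 spindle kinesins (Kifc1 and Kifc5b), Kif7, and Kif26a, Kif26b, Kif28 and Kif12. Kif13a was at 0.709 and 0.604 RPKM, and Kifc2 at 0.166 and 0.277. Kif26a and Kif26b, atypical kinesins, were under 0.05 RPKM. Kif28 had 2 reads in Piwil1-/- and was listed at 0 in Piwil1+/-, and Kif12, an epithelial kinesin of kidney and other organs, was listed at 0 in both.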

How the data were processed

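The authors deposited 1 table with an RPKM value per Ensembl gene for each of the 2 RNA libraries, per the file headers. Bowtie, STAR and mm10 are named, per the submitters' processing notes; no source used here gives their roles or versions, nor the read counter, the annotation and the strand setting. Symbols were found for 22444 of the 22808 identifiers. The small RNA table (2 libraries of PIWIL1 immunoprecipitates) holds no gene measurements and was not used here.

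Log2 ratios used log2 (RPKM + 1), and genes with at least 1 RPKM in either library counted as measured. Genes at least 2-fold or 1.5-fold apart on that scale were counted. Each library's depth was found from the steps of RPKM values of 72 genes under 1500 bp, and whole reads then followed for 17950 of the 18019 genes above 0 (99.6%). These read numbers are minimum values, since a multiple of them can give the same RPKM. They gave 95% exact intervals on ratios, which would be narrower at a multiple of these reads. Copies made by PCR are not independent molecules.

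The members and lists were chosen with earlier results of these data known. Every member is accounted for; of each partner list the 2 highest and 2 lowest log2 ratios are named, all KIF17 partners, and Piwil1 as the check of labels. Of the 44 members 30 overlap another RefSeq gene span, and reads there cannot be told apart where counting ignored strand. Promoter windows are RefSeq sequences of 250 bases before a start, which for some members lies inside the gene span, searched on both strands. Alternatives were a pseudocount of 0.1, no filter, a filter on the mean, trimmed-mean scaling (30% off each side) and equal-sum scaling. Scripts (Python 3.11.15, numpy 2.4.6, pandas 2.3.3, scipy 1.17.1, matplotlib 3.10.9) were tested on simulated data.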

Additional observations from a re-analysis of the deposited data

How the results depend on the processing

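The counts of kinesins past 2-fold (0) and past 1.5-fold (1 lower, 0 higher) were the same under all 5 alternatives. Genes under 1 RPKM in both libraries cannot reach 2-fold with a pseudocount of 1, so leaving out the filter could not raise that count. Under the level cut, the plain ratio of RPKM was past 1.5-fold for Kifc2 (1.67), Kif7 (1.63) and Kif26b (0.259). The median log2 ratio ranged from 0.01 to 0.05 for spindle kinesins, from -0.04 to -0.02 for transport kinesins and from -0.03 to 0.01 for ciliary, flagellar and centriolar kinesins, and the ratio of Kif17 from -0.39 to -0.31. Of the 32 measured members 31 kept their sign under the alternatives that gave them a value (Kif19a has none with the filter on the mean); Kif20a ran from -0.01 to 0.02. With a pseudocount of 0.1, 332 genes of the table were at least 2-fold lower and 68 higher, against 195 and 23 with a pseudocount of 1. The spindle share of the summed kinesin RPKM in Piwil1+/- was 38.1%, and 45.2% without Kif9, the highest member, since its level then leaves the sum. With 1 library per genotype no library could be left out. No paired analysis was possible because each genotype has 1 library and no test was made. Few reads lie behind Kif28 (0 in Piwil1+/- and 2 in Piwil1-/-) and Kif26b (8 and 2).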

Other observations

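Cytoplasmic dynein with its cofactor dynactin is the motor that carries cargo the other way along microtubules from most kinesins. Its genes were near equal levels in both testes, with a median log2 ratio of -0.01 over the 18 measured of 19 genes. The heavy chain Dync1h1, added after its values were seen, had 89.4 RPKM in the Piwil1+/- library and 95.8 in the other. Dynll2, a light chain that many other complexes share, was lowest, at 4.35 and 1.48 RPKM (log2 ratio -1.11). It was the single gene of the list past 2-fold, against 1.96% of all measured genes on the lower side and 0.231% on the higher. Dynlt3 was next lowest, at 1.40 and 1.11 (-0.19). The highest were the light intermediate chain Dync1li1, at 3.73 and 5.28 RPKM (0.41), and the dynactin subunit Dctn5, at 18.1 and 22.7 (0.31).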
